A study of Mus musculus with 12 samples.

Results

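The 9 genes described here encode 6 members of the carbonic anhydrase family (Car1, Car2, Car4, Car8, Car12 and Car13), the 2 guanylin peptides (Guca2a and Guca2b) and their receptor (Gucy2c). They were chosen by gene symbol as a named group, and all 9 were among the 35841 genes measured by RNA sequencing of mouse colon. The choice was made with earlier results of these data known. Counts and medians of the 9 beside those of all tested genes are therefore descriptions of this group. The 12 libraries came from wild type mice and formed 4 groups of 3. Ctrl received no treatment by the labels (libraries 1, 4 and 5), and the others received ImP (1, 3 and 4), DSS (2, 3 and 5) or DSS+ImP (2, 3 and 4). DSS (dextran sulfate sodium) injures the colon epithelium and is given to mice to induce colitis. The labels do not spell out ImP, and the series text gives a treatment of 7 days. Angelica dahurica polysaccharides are named in the series title but in none of the sample labels. Strain, age and sex were not given in the sources used here, nor whether each library came from a separate animal, so a p-value reflects the spread among these libraries, which may be technical.

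Carbonic anhydrases interconvert carbon dioxide and water with bicarbonate and protons. In the colon the cytosolic enzymes supply the ions that apical chloride/bicarbonate and sodium/proton exchangers move, and the membrane-bound enzymes act on the cell surface. Guanylin and uroguanylin are small peptides secreted by the gut epithelium that bind guanylate cyclase C on the apical membrane. The receptor then makes cGMP, which activates the kinase encoded by Prkg2, opens the chloride channel CFTR and inhibits the sodium/proton exchanger encoded by Slc9a3.

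The genes for guanylin (Guca2a) and uroguanylin (Guca2b) are next to each other on mouse chromosome 4, and Car13, Car1, Car3 and Car2 follow one another on chromosome 3 in the RefSeq gene order. RefSeq promoter sequence (GRCm38.p6) was at hand for 4 of the 9 genes. The 250 bases before the annotated start of the 2 guanylin genes are shown because both of these neighbours fell in DSS+ImP against DSS. Guca2a lies on the plus strand, with the window at chr4:119637482-119637731, and Guca2b on the minus strand, with the window at chr4:119658946-119659195. Capitals mark 2 matches to a GATA factor motif in Guca2a, which lie on the opposite strand and so appear as TTATCT. In Guca2b they mark 1 match to an HNF1 half-site on the printed strand.
Guca2a: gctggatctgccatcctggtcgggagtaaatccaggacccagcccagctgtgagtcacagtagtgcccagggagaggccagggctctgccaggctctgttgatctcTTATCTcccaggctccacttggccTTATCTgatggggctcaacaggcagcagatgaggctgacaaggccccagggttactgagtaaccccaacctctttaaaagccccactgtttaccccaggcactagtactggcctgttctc
Guca2b: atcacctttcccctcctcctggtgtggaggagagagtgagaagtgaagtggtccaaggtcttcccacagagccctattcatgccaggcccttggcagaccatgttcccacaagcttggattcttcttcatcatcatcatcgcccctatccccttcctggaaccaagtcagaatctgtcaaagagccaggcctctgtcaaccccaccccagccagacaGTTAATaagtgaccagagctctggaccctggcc
The GATA motif searched on both strands, AGATAA, was in 9.99% of 32851 RefSeq promoters of the same length. The HNF1 half-site, GTTAAT, searched the same way, was in 6.43% of them. A TATA box (TATAAA), a CDX motif (TTTATG) and an HNF4 motif (AAAGTCCA) had no match in either window. The GATA motif was added after the sequences were read, and a match is a description of the letters only.

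Each library held between 55419380 and 67406087 estimated counts. Levels are given as CPM, counts scaled to a common library size after normalisation for library composition. Fitted changes are given as log2 change ± SE from edgeR's quasi-likelihood fit. A gene is said to have fallen or risen only at an adjusted p under 0.05 over the 22279 genes tested, and all 9 genes passed the filter on low counts. Liver transcripts set libraries apart before any comparison. Summed over a list of 10 liver genes, DSS 2 and all 3 Ctrl libraries held 111 to 135 CPM and the others 3.40 to 8.55 CPM (of library totals). The acinar gene Ctrb1 was at 4.37 to 6.09 CPM in the 3 ImP libraries, DSS 3 and DSS 5, at 0 to 1.29 CPM in Ctrl and DSS 2, and at 0 in DSS+ImP. Only the DSS group was spread over 2 of these sets, so the set and the treatment cannot be told apart for DSS+ImP.

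The colon label was checked against epithelial markers. A list of 12 pan-epithelial genes summed to between 12771 and 16070 CPM in Ctrl, 14129 and 17055 in ImP, 14900 and 16543 in DSS and 11329 and 13917 in DSS+ImP. Of these 12 genes, 0 were called in edgeR between DSS and Ctrl, where 2 had an unadjusted p under 0.05 and neither DESeq2 nor limma called any. The same was 0 between ImP and Ctrl, where 2 had an unadjusted p under 0.05, DESeq2 called 1 and limma 0. Between DSS+ImP and DSS, 3 fell (Cldn3, Cdx2 and Hnf4a). There 9 of the 12 were lower at an unadjusted p under 0.05, and DESeq2 called 7 lower and limma 3. In edgeR 4 fell in DSS+ImP against Ctrl and 3 in DSS+ImP against ImP. In bulk tissue, fewer cells of a type and less RNA per cell cannot be told apart.

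**Figure D1:**
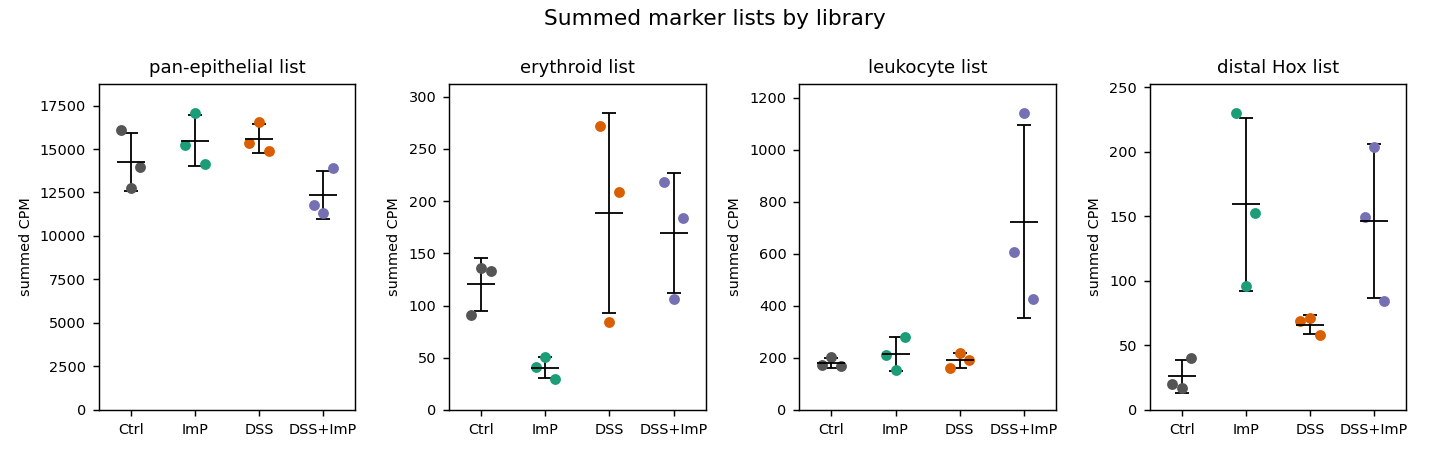
Summed CPM of 4 marker lists in each of the 12 libraries (points), with the group mean and SD (bars). The pan-epithelial sum was lowest on average in DSS+ImP (11329 to 13917, overlapping Ctrl), where the leukocyte sum was highest (425 to 1141). Of the 10 leukocyte genes 5 rose and 1 fell in DSS+ImP against DSS. The erythroid sum was lowest in ImP (29.9 to 50.4), and the distal Hox sum was lowest in Ctrl (17.3 to 40.5).

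Compared per length in the untreated colon, Car1 stood far above the rest at a mean of 5790 FPKM (fragments per kilobase, scaled to the library). Guca2a followed at 1766 FPKM. Car2 (278) and Car4 (249) came next, and their libraries overlapped. Below them were Gucy2c at 87.0, Car8 at 45.0, Guca2b at 24.4, Car13 at 21.8 and Car12 at 14.1 FPKM. Guca2b and Car13 overlapped in their libraries, and the other neighbours in this order did not. In DSS+ImP Car1 was still first at 919 FPKM and Guca2a second at 641 FPKM. All 9 transcripts together made up 1.0% to 1.40% of a Ctrl library's counts and 0.299% to 0.392% of a DSS+ImP library's.

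In the untreated group guanylin (Guca2a) was at 1461, 1067 and 1172 CPM. It was at 748, 611 and 599 CPM in DSS, at 510, 737 and 725 CPM in ImP, and at 430, 343 and 442 CPM in DSS+ImP. The DSS and ImP libraries overlapped each other, all lay below Ctrl, and all lay above DSS+ImP. Guca2a fell in DSS against Ctrl by 0.92 ± 0.17 on the log2 scale (adjusted p = 0.0142) and in ImP against Ctrl by 0.91 ± 0.17 (adjusted p = 0.0232). It fell further in DSS+ImP, by 0.69 ± 0.17 against DSS (adjusted p = 0.0303), by 0.70 ± 0.17 against ImP (adjusted p = 0.0232) and by 1.61 ± 0.17 against Ctrl (adjusted p = 0.000101). Guca2a was 1 of 2 members, with Car1, called in all 3 comparisons with Ctrl.

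Uroguanylin (Guca2b), the lower of the peptides per length, was at 29.2, 25.7 and 20.0 CPM in Ctrl. Its libraries read 25.5, 22.1 and 22.0 CPM in DSS, 17.1, 19.5 and 13.9 CPM in ImP, and 12.6, 7.13 and 14.9 CPM in DSS+ImP. DSS lay inside the range of Ctrl, whereas DSS+ImP lay below both and overlapped ImP. Guca2b fell in DSS+ImP to 49.8% of its fitted DSS level (SE 0.24 on the log2 scale, adjusted p = 0.0261), and its log2 change against Ctrl was -1.11 ± 0.24 (adjusted p = 0.0058). Between DSS and Ctrl its log2 difference was -0.11 ± 0.24 (adjusted p = 0.894), and between ImP and Ctrl it was -0.57 ± 0.24 (adjusted p = 0.270). Whether Guca2a and Guca2b changed by different amounts was not tested.

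Guanylate cyclase C (Gucy2c), the receptor of both peptides, was at 400.02, 423 and 386 CPM in Ctrl and at 401, 351 and 396 CPM in DSS. ImP libraries held 388, 311 and 266 CPM, and DSS+ImP libraries 224, 219 and 315 CPM. The 3 DSS+ImP values lay below every Ctrl and DSS value, and DSS overlapped Ctrl. Gucy2c fell in DSS+ImP by 0.60 ± 0.16 against DSS (adjusted p = 0.0375) and by 0.67 ± 0.16 against Ctrl (adjusted p = 0.00911). Its log2 difference between DSS and Ctrl was -0.08 ± 0.16 (adjusted p = 0.884).

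**Figure D2:**
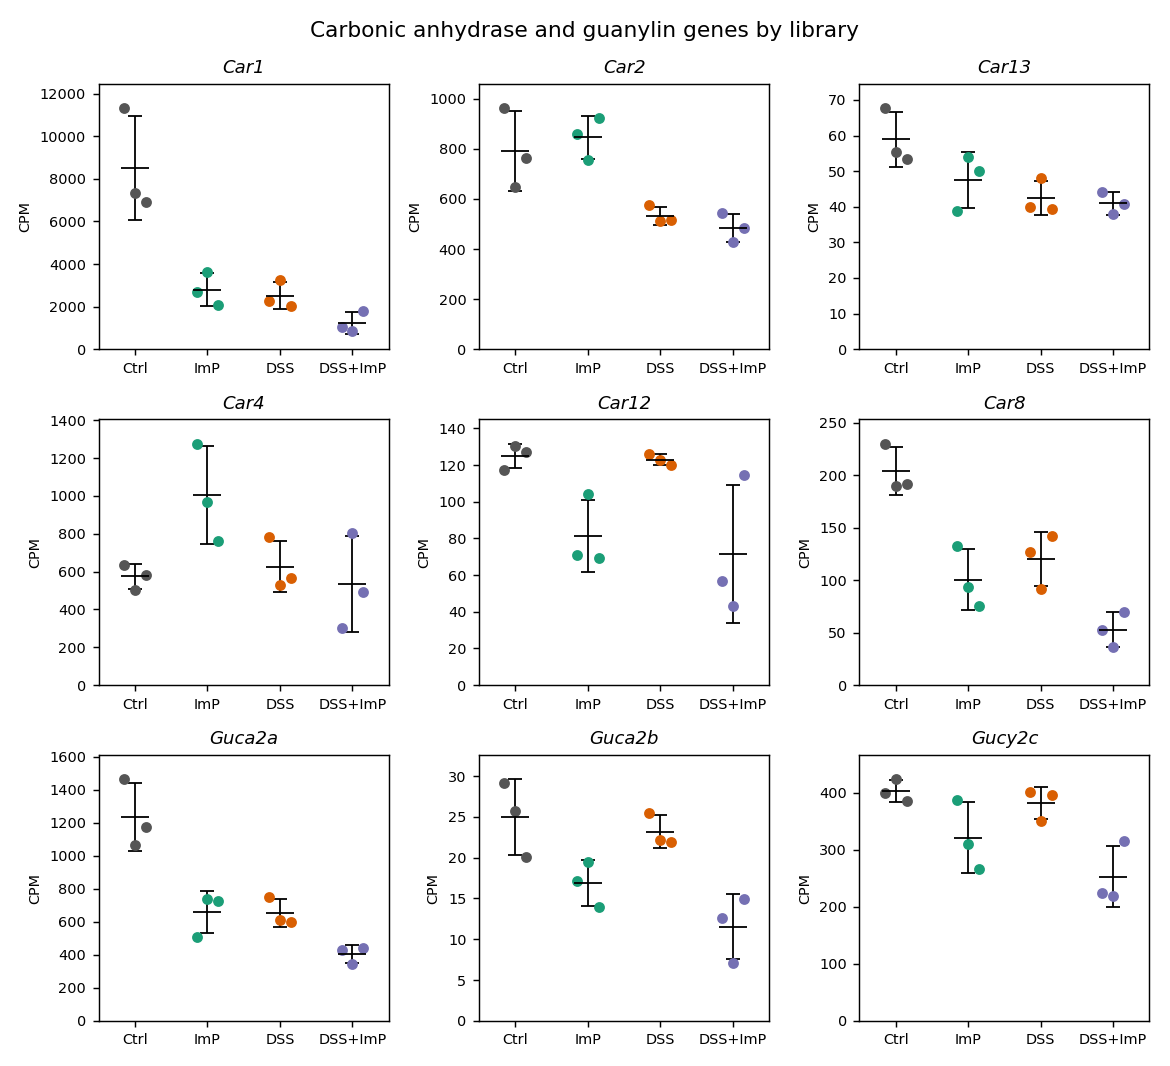
CPM of the 9 genes in each of the 12 libraries (points), with the group mean and SD (bars), each panel on its own linear axis from 0. Car1 and Guca2a were lower in every ImP, DSS and DSS+ImP library than in any Ctrl library, while Car4 was highest on average in ImP (763 to 1277, overlapping DSS and DSS+ImP).

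Car1, the cytosolic carbonic anhydrase most abundant here, was at 11341, 7330 and 6914 CPM in Ctrl. ImP libraries held 2673, 3619 and 2098 CPM, DSS libraries 2248, 3228 and 2034 CPM, and DSS+ImP libraries 1053, 851 and 1791 CPM. Ctrl was above every other library, DSS+ImP was below every other library, and ImP and DSS overlapped. DSS was at 29.4% and DSS+ImP at 14.4% of Ctrl in the fitted values. Car1 fell by 1.77 ± 0.31 in DSS against Ctrl (adjusted p = 0.0104), by 1.61 ± 0.31 in ImP against Ctrl (adjusted p = 0.0255), by 2.79 ± 0.32 in DSS+ImP against Ctrl (adjusted p = 0.000141) and by 1.18 ± 0.30 in DSS+ImP against ImP (adjusted p = 0.0304). Against DSS, DSS+ImP differed by -1.02 ± 0.30, which missed the threshold (adjusted p = 0.0598). With DSS+ImP 4, the highest of its group, left out, that difference was -1.39 and passed (adjusted p = 0.0110). With other libraries left out it reached -0.80 (edgeR adjusted p up to 0.219).

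Car2, the fast cytosolic enzyme that also serves red cells, was at 964, 647 and 762 CPM in Ctrl and at 859, 755 and 923 CPM in ImP. It was at 574, 510 and 515 CPM in DSS and at 542, 429 and 484 CPM in DSS+ImP. Every library with DSS, alone or with ImP, was below every library without it. Car2 fell in DSS+ImP by 0.71 ± 0.14 against Ctrl (adjusted p = 0.00445) and by 0.80 ± 0.15 against ImP (adjusted p = 0.00516). DSS against Ctrl gave -0.57 ± 0.14 (adjusted p = 0.0598), which missed the threshold. It passed without Ctrl 4, at -0.69 (edgeR adjusted p = 0.0422), and with other libraries left out reached -0.40 (edgeR adjusted p up to 0.182).

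Car13 is a further cytosolic enzyme. Its libraries held 67.8, 55.5 and 53.5 CPM in Ctrl, 38.8, 54.0 and 49.9 CPM in ImP, 39.9, 48.1 and 39.4 CPM in DSS, and 44.1, 37.9 and 40.8 CPM in DSS+ImP. Both groups with DSS lay below Ctrl and overlapped each other. Car13 fell in DSS+ImP against Ctrl by 0.53 ± 0.14 (adjusted p = 0.0179), and DSS against Ctrl gave -0.47 ± 0.14 (adjusted p = 0.102).

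Red cells also contain Car1 and Car2, so erythroid transcripts were set beside them. A list of 9 measured erythroid genes summed to between 91.3 and 136 CPM in Ctrl, 29.9 and 50.4 in ImP, 83.9 and 272 in DSS, and 106 and 218 in DSS+ImP. The erythroid sum of DSS and DSS+ImP overlapped that of Ctrl, and that of ImP lay below it. Between DSS and Ctrl, 0 of the 9 were called in edgeR, with 0 at an unadjusted p under 0.05 and 0 by DESeq2 or limma. Between ImP and Ctrl, 2 fell and 5 were lower at an unadjusted p under 0.05, and DESeq2 called 5 lower and limma 1. In DSS+ImP against ImP 6 of the 9 rose and 0 fell, and DESeq2 and limma each called 5 higher. The part of red cells in the Car1 and Car2 values was not tested.

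Car4, a membrane-bound enzyme anchored to the apical membrane, was at 637, 503 and 583 CPM in Ctrl, 1277, 970 and 763 CPM in ImP, 784, 531 and 566 CPM in DSS, and 300.4, 804 and 493 CPM in DSS+ImP. ImP alone lay above Ctrl, with a log2 difference of 0.80 ± 0.30 that did not pass (adjusted p = 0.213), and DSS and DSS+ImP overlapped Ctrl. Car4 was not called in any comparison, and its spread in DSS+ImP, an SD of 254 CPM around a mean of 533 CPM, was wide. Leaving out DSS+ImP 3, its highest library, gave -1.33 against ImP (adjusted p = 0.0171), compared with -0.91 (adjusted p = 0.0826) over all libraries. Leaving out others moved it up to -0.63 (edgeR adjusted p up to 0.249).

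Car12, a transmembrane enzyme with its active site outside the cell, was at 117, 130 and 127 CPM in Ctrl and at 126, 123 and 120 CPM in DSS. It was at 71.0, 104 and 69.3 CPM in ImP and at 56.9, 43.4 and 114 CPM in DSS+ImP. ImP and DSS+ImP lay below both other groups, and DSS lay within Ctrl. The difference was -0.80 ± 0.28 in DSS+ImP against Ctrl (adjusted p = 0.0579) and -0.78 ± 0.28 against DSS (adjusted p = 0.111). Without DSS+ImP 4, the library at 114 CPM, they passed, at -1.32 (adjusted p = 0.000455) and -1.29 (adjusted p = 0.00156). With other libraries left out they reached -0.53 (edgeR adjusted p up to 0.200) and -0.52 (edgeR adjusted p up to 0.326).

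Car8 belongs to the family by sequence but lacks catalytic activity, and it is known as a partner of the inositol trisphosphate receptor. It was at 230, 189 and 192 CPM in Ctrl, 133, 93.4 and 75.6 CPM in ImP, 127, 91.5 and 142 CPM in DSS, and 52.6, 35.9 and 69.4 CPM in DSS+ImP. DSS+ImP was below all other libraries and Ctrl above all others. Car8 fell in DSS+ImP by 1.19 ± 0.25 against DSS (adjusted p = 0.0169), by 0.93 ± 0.25 against ImP (adjusted p = 0.0373) and by 1.95 ± 0.26 against Ctrl (adjusted p = 0.00031). DSS against Ctrl gave -0.76 ± 0.25 (adjusted p = 0.143) and ImP against Ctrl -1.02 ± 0.25 (adjusted p = 0.0624). The latter passed without ImP 1 (at -1.27), DSS+ImP 3 or DSS+ImP 4, with an adjusted p down to 0.0361. With other libraries left out it reached -0.83 (edgeR adjusted p up to 0.199).

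**Figure D3:**
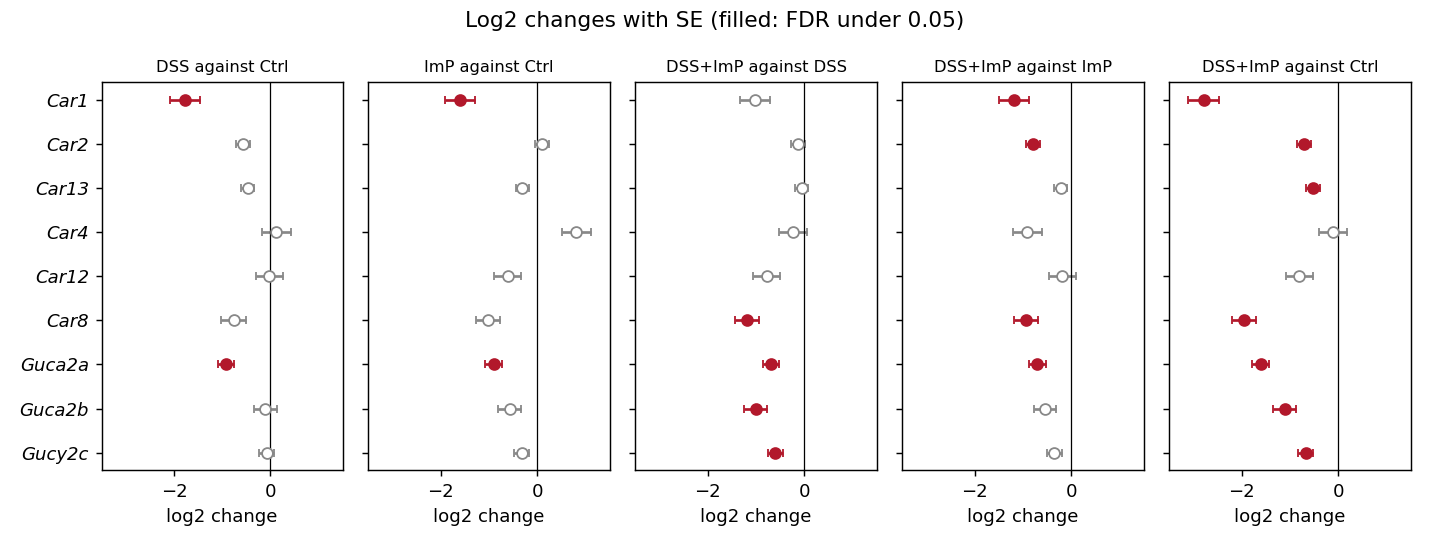
Log2 change with SE (horizontal bars) of the 9 genes in 5 comparisons, filled where the edgeR adjusted p was under 0.05. No filled point lies above 0, and DSS+ImP against Ctrl holds 7 filled points of 9.

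Taking the comparisons one at a time, DSS against Ctrl had 2 of the 9 genes lower (Car1 and Guca2a) and 0 higher, where 1.59% of all tested genes were called lower, 1.21% higher and 2.8% in either direction. The median change of the 9 was -0.47, against -0.02 for all tested genes. Both calls depended on single libraries. Car1 lost its call without DSS 5 (adjusted p = 0.0566), and Guca2a lost it without Ctrl 1, DSS 3 or DSS 5 (adjusted p up to 0.0694). With the liver trace as a term in the edgeR fit, neither was called (Car1 -1.92, adjusted p = 0.148 and Guca2a -0.72, adjusted p = 0.269). Within the libraries that carried the trace, DSS 2 against the 3 Ctrl libraries, Car1 was at -1.9 and Guca2a at -0.70. No p-value is given, as 1 DSS library shows no spread. No second DSS library stands behind these values, and the labels do not say that the trace marks a batch.

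ImP against Ctrl, 2 groups without DSS, also had Car1 and Guca2a lower and 0 higher, where 0.929% of tested genes were called lower, 1.06% higher and 1.99% in either direction. The median of the 9 was -0.57 against -0.01 for all tested genes. This comparison shares its Ctrl libraries with the one before. Car1 lost its call without Ctrl 1, Ctrl 4, ImP 1 or ImP 4 (adjusted p up to 0.0981) and Guca2a without Ctrl 1, Ctrl 4 or ImP 1 (adjusted p up to 0.0917). With the liver trace as a term, the edgeR values were -1.84 for Car1 (adjusted p = 0.407) and -0.60 for Guca2a (adjusted p = 0.646). No ImP library carried the trace, so this fit rests on the DSS libraries for the size of the trace's effect.

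DSS+ImP against DSS had 4 of the 9 lower (Car8, Guca2b, Guca2a and Gucy2c) and 0 higher, where 4.04% of tested genes were called lower, 3.99% higher and 8.03% in either direction. The median of the 9 was -0.69 against 0.02 for all tested genes. The call of each of the 4 genes was lost without DSS 2, DSS 5, DSS+ImP 2 or DSS+ImP 3. The highest adjusted p was 0.0717 for Car8, 0.0801 for Guca2b, 0.133 for Guca2a and 0.163 for Gucy2c, whose call was also lost without Ctrl 4, Ctrl 5 or ImP 3. Scaling by library totals alone moved the median of all genes in this comparison to 0.16, and on that scale Guca2a (-0.54, edgeR adjusted p = 0.0572) and Gucy2c (-0.46, edgeR adjusted p = 0.0642) were not called.

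DSS+ImP against ImP had 4 lower (Car1, Car2, Car8 and Guca2a) and 0 higher, where 4.92% of tested genes were called lower, 4.41% higher and 9.33% in either direction. Car2 kept its call whichever library was left out. Car1 lost its call without ImP 1, ImP 3, DSS+ImP 2 or DSS+ImP 3 (adjusted p up to 0.123). Guca2a lost it without ImP 3, ImP 4, DSS+ImP 2 or DSS+ImP 3 (adjusted p up to 0.105). Car8 lost it without Ctrl 4, Ctrl 5, ImP 1, ImP 3, DSS+ImP 2 or DSS+ImP 3 (adjusted p up to 0.142). Without DSS+ImP 4, Car12 (-0.70, adjusted p = 0.0257) and Gucy2c (-0.54, adjusted p = 0.0322) gained a call. With other libraries left out they reached 0.076 (edgeR adjusted p up to 0.980) and -0.19 (edgeR adjusted p up to 0.571).

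DSS+ImP against Ctrl had 7 lower and 0 higher, where 11.8% of tested genes were called lower, 10.9% higher and 22.7% in either direction. The 2 genes not called were Car4 and Car12. Car1, Car2, Car8, Guca2a and Guca2b kept the call in all 12 fits that left out 1 library. Car13 lost it without Ctrl 1 or DSS+ImP 3 (adjusted p up to 0.0822) and Gucy2c without DSS+ImP 3 (adjusted p = 0.0514).

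DSS and ImP given separately were not told apart in these genes at this depth and number of libraries. In DSS against ImP, 0 of 9 were called by edgeR, where 0.584% of tested genes were called lower, 0.153% higher and 0.736% in either direction. Of the 9, 2 had an unadjusted p under 0.05 (Car2 and Car4), DESeq2 called 1 (Car2) and limma 0, where they called 2.72% and 0.442% of the genes they tested. Without Ctrl 1, edgeR called Car2 at -0.67 (adjusted p = 0.0327), and with other libraries left out its adjusted p was up to 0.287. The interaction, which asks whether the DSS change differed with and without ImP, called 0 of 9 by edgeR and 0 by DESeq2 or limma, where 0% of tested genes were called by edgeR, 4.27% by DESeq2 and 0.175% by limma. Car4 was the 1 gene at an unadjusted p under 0.05, with an interaction of -1.04 ± 0.42 (edgeR adjusted p = 0.351).

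Measured against the pan-epithelial sum of the same library, the order of the groups was much the same for Car1 and Guca2a. Car1 per pan-epithelial CPM was 0.270 of its Ctrl value in DSS, 0.302 in ImP and 0.165 in DSS+ImP. For Guca2a the ratios were 0.487, 0.496 and 0.382, and for Car8 they were 0.544, 0.456 and 0.295. Gucy2c was at 0.863, 0.730 and 0.712 and Guca2b at 0.850, 0.618 and 0.527. For the other members DSS+ImP, the lowest group by mean CPM, was not the lowest on this scale. Car2 was at 0.623 in DSS, 1.01 in ImP and 0.719 in DSS+ImP, and Car13 at 0.658, 0.747 and 0.809. Car12 was at 0.890, 0.589 and 0.635, and Car4 at 1.003, 1.61 and 1.09. These ratios are descriptions of group means, with no test.

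Other tissue components also differed among the groups, and not all in the order of the 9 genes. A list of 20 absorptive colonocyte markers summed to between 25835 and 28631 CPM in Ctrl and 30390 and 32113 in ImP. The sum was between 26682 and 27060 in DSS and 15703 and 21644 in DSS+ImP. Of the 20, 9 fell and 0 rose in DSS+ImP against DSS, with a median of -0.56. In DSS+ImP 12 fell and 0 rose against ImP, and 11 fell and 2 rose against Ctrl. The falls among the 9 members in these comparisons were 4, 4 and 7. In ImP against Ctrl 4 of these 20 rose and 2 fell, and in DSS against Ctrl 2 rose and 1 fell. The goblet list summed to at most 15936 CPM in DSS+ImP and to at least 17559 CPM in every other library, and 2 of its 10 genes fell in DSS+ImP against DSS. The smooth muscle list summed to between 1663 and 2447 CPM in Ctrl, 2487 and 4616 in ImP, 1986 and 2933 in DSS and 2518 and 3286 in DSS+ImP. In ImP against Ctrl 0 of its 10 genes were called in edgeR, with 10 higher at an unadjusted p under 0.05, 8 called higher by DESeq2 and 0 by limma. The leukocyte list summed to at most 282 CPM in any library outside DSS+ImP and to between 425 and 1141 CPM within it. Of its 10 genes 5 rose and 1 fell in DSS+ImP against DSS. S100a8 and S100a9 had the highest means of this list in DSS+ImP, at 137 ± 104 and 236 ± 178 CPM (SD, n = 3). The gene that fell was Cd3e, by 0.87 ± 0.20 (edgeR adjusted p = 0.0212), so the higher sum does not stand for every gene of the list. The distal Hox list, which marks position along the gut, held 17.3 to 40.5 CPM in the untreated libraries, 96.4 to 230 with ImP, 57.8 to 71.5 with DSS and 84.8 to 204 with both. Of its 7 tested genes 2, Hoxa13 and Hoxa11, rose in DSS and in ImP against Ctrl. The rest were not called and went both ways. Log2 changes were below 0 for Hoxd10 (-0.92 in DSS, -1.11 in ImP), Hoxd11 (-1.08 and -0.17) and Hoxd12 in DSS (-1.06). They were above 0 for Hoxb13 (1.18 in DSS, 3.76 in ImP), Hoxd13 (0.42 and 6.47) and Hoxd12 in ImP (3.65). The part of these components in the changes of the 9 genes was not tested.

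Of 16 listed genes of cGMP signalling, 14 were matched and tested. The list also holds natriuretic peptide receptors (Npr1, Npr2 and Npr3) and soluble guanylate cyclase subunits (Gucy1a1, Gucy1a2 and Gucy1b1), which act apart from Gucy2c, so its counts and median are not a readout of this receptor. Prkg2, the cGMP-dependent kinase of the gut epithelium, was at 47.1 ± 9.0 CPM in Ctrl, 33.9 ± 2.78 in DSS, 20.2 ± 5.47 in ImP and 11.4 ± 4.72 in DSS+ImP (SD, n = 3). It fell in DSS+ImP against DSS by 1.57 ± 0.27 (edgeR adjusted p = 0.0073). In the same comparison Abcc4, a cGMP exporter, rose by 0.79 ± 0.14 (edgeR adjusted p = 0.00928), so the list had 1 gene up and 1 down. DESeq2 called 7 up and 2 down there, and limma 4 up and 1 down. In DSS against Ctrl 2 phosphodiesterase genes rose and 0 genes of the list fell. Pde3a, whose enzyme is inhibited by cGMP and acts mainly on cAMP, rose by 0.55 ± 0.09 (edgeR adjusted p = 0.00875), and Pde9a, whose enzyme acts on cGMP, by 0.93 ± 0.16 (edgeR adjusted p = 0.00931). The list's median change was 0.10 in DSS against Ctrl and 0.48 in DSS+ImP against DSS. ImP against Ctrl, which shares the Ctrl libraries, had 1 gene up and 1 down. Pde3a rose there by 0.59 ± 0.09 (edgeR adjusted p = 0.0133) and Prkg2 fell by 1.22 ± 0.27 (edgeR adjusted p = 0.0406). Pde9a was not called (0.47 ± 0.16, edgeR adjusted p = 0.166).

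Of 23 listed chloride, bicarbonate and proton transport genes, 22 were tested. In DSS against Ctrl 4 rose and 0 fell. Best2, an anion channel of goblet cells, rose by 2.11 ± 0.32 (4.53 to 19.5 CPM, edgeR adjusted p = 0.0058). Slc9a3, the sodium/proton exchanger that cGMP signalling inhibits, rose by 1.32 ± 0.27 (282 to 706 CPM, edgeR adjusted p = 0.0239). Slc26a3, the apical chloride/bicarbonate exchanger, rose by 1.12 ± 0.26 (edgeR adjusted p = 0.0399) and Slc4a7, a sodium bicarbonate cotransporter, by 0.73 ± 0.17 (edgeR adjusted p = 0.0375). The list's median was -0.19, of opposite sign to its calls. ImP against Ctrl, which shares the Ctrl libraries, had 4 of the list up and 1 down. Best2 rose there by 1.64 ± 0.32 (edgeR adjusted p = 0.0278) and Slc26a3 by 1.85 ± 0.26 (edgeR adjusted p = 0.00796). Slc9a3 (0.98 ± 0.27, edgeR adjusted p = 0.0924) and Slc4a7 (0.51 ± 0.17, edgeR adjusted p = 0.150) were not called.

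In DSS+ImP against DSS 0 of the 22 rose and 5 fell. Slc4a4, the basolateral sodium bicarbonate cotransporter, fell by 0.93 ± 0.12 (edgeR adjusted p = 0.00419), and Slc4a2, the basolateral anion exchanger, by 0.88 ± 0.14 (edgeR adjusted p = 0.00588). Slc9a2, an apical sodium/proton exchanger, fell by 0.92 ± 0.15 (edgeR adjusted p = 0.00699), and the scaffold gene Slc9a3r1 by 0.70 ± 0.12 (edgeR adjusted p = 0.0085). The smallest of the 5 falls was that of the sulfate transporter Slc26a2, by 0.51 ± 0.14 (edgeR adjusted p = 0.0462). Cftr, the chloride channel that cGMP signalling opens, was at 115 ± 13.1 CPM in Ctrl, 158 ± 23.7 in DSS and 112 ± 31.3 in DSS+ImP (SD, n = 3) and was not called in either comparison (edgeR adjusted p = 0.253 and 0.121).

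**Figure D4:**
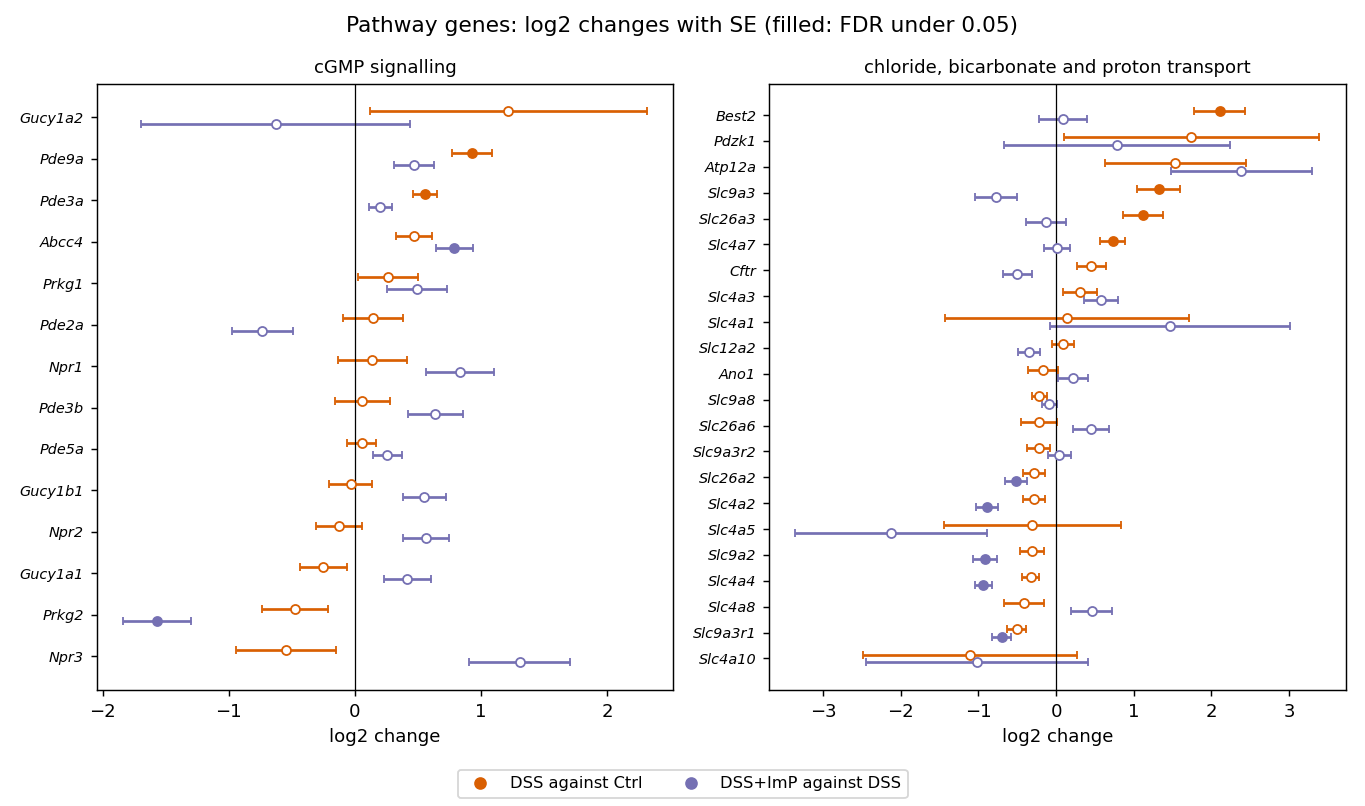
Log2 change with SE of the tested cGMP signalling genes (left) and chloride, bicarbonate and proton transport genes (right), in DSS against Ctrl (orange) and DSS+ImP against DSS (purple), filled where the edgeR adjusted p was under 0.05. The 4 filled transport points in DSS against Ctrl lie above 0 and the 5 in DSS+ImP against DSS lie below it.

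The rest of the family gave few readable values. Of 10 other carbonic anhydrase genes, 8 were tested and 0 were called in edgeR in any of the comparisons. In DSS against Ctrl 1 had an unadjusted p under 0.05, and in DSS+ImP against DSS 0 did, and DESeq2 and limma called 0 in both. That 1 gene was Car9, the tumour- and hypoxia-associated membrane enzyme, at 59.9, 45.6 and 52.7 CPM in Ctrl and 65.3, 80.2 and 71.4 CPM in DSS. DSS lay above Ctrl in all libraries, with a log2 difference of 0.45 ± 0.15 (edgeR adjusted p = 0.138). Outside the comparisons named, limma on FPKM called 1 gene higher in DSS+ImP against ImP and 1 in each direction in DSS+ImP against Ctrl, where DESeq2 called 1 lower.

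Among the 14202 genes ranked for likeness by Pearson's r of log2 CPM over the 12 libraries, those nearest to Car1 were Abcd3 (0.987), Ghitm (0.985) and Vdac3 (0.983). Guca2a was nearest to Slc47a1 (0.974), Arl4a (0.965) and Retsat (0.963), and Guca2b to Cdx2 (0.980), Pycard (0.973) and Cpped1 (0.969). Gucy2c was nearest to Fam83f (0.964), Prkg2 (0.961) and Aspg (0.958). Car8 was nearest to Bche (0.986), Hoxb8 (0.983) and Ugt1a6a (0.983). Car12 was nearest to Fyb2 (0.970), Elovl6 (0.961) and Sptssb (0.953), and Car13 to Selenow (0.934), Zbed5 (0.929) and Reep5 (0.924). Car2 was nearest to Upp1 (0.941), Oasl1 (0.932) and Psmb9 (0.920), and Car4 to Gcnt1 (0.928), Sprr2a1 (0.905) and Sprr2a2 (0.900). These values are descriptions over libraries that share their groups and the traces above.

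Between members, Car1 and Guca2a had an r of 0.939 over the 12 libraries and 0.425 after the group means were removed. Car8 and Gucy2c had 0.922 and 0.857, and Car12 and Guca2b had 0.888 and 0.739. Guca2b and Gucy2c, a ligand and its receptor, had 0.887 and 0.593, while Guca2a and Gucy2c had 0.674 and -0.170. Car4 was between -0.13 and 0.20 with every member except Car2, with which it had 0.42. All are descriptions over the same 12 libraries.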

How the data were processed

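RNA of mouse colon was sequenced in 12 libraries, 3 per group. Per the labels, mRNA was selected with oligo(dT) beads and dUTP was built into the second strand. Use of the strand in counting was not given in the sources used here. Cutadapt 1.9, HISAT2 2.0.4 and StringTie 1.3.4d are named per the submitters' processing notes. The deposited estimated counts are unscaled whole numbers for each gene. The same table holds FPKM values, also deposited. Counts of 4 were in excess (12215 values, against 7060 of 3 and 4182 of 5), so counts are not whole read pairs. The processing notes name GRCm38, but only 663 of 33695 shared gene identifiers share their start and end with GENCODE M21, and the table's coordinates were not used.

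Of 35841 genes, 22279 passed filterByExpr. They were normalised with TMM (factors 0.921 to 1.12) and tested two-sided in R 4.3.3 with edgeR 4.0.16, over all 12 libraries with 1 coefficient per group, with Benjamini-Hochberg adjustment and a threshold of 0.05. Each SE was derived from the log2 change and the F statistic (absolute change divided by the root of F). The test was tried on simulated libraries that shared a common mean per gene apart from inserted changes. They held no liver or acinar trace, so that trial cannot show how the traces affect the calls. Named genes were the 9 members, up to 6 called genes per pathway list in DSS against Ctrl and in DSS+ImP against DSS, and the 3 genes most like each member among those with a mean of at least 1 CPM. Likeness used log2 CPM with a prior count of 2. Other genes were named outside this choice, after their values were seen. They were Hoxa11, Hoxa13, Hoxb13, Hoxd10, Hoxd11, Hoxd12, Hoxd13, Ctrb1, Car3, Car9, Cftr, S100a8, S100a9, Cd3e and the called epithelial markers. The members and lists were chosen with earlier results of these data known. From the transport list 1 gene was left out of the counts and is not reported here. Alternatives were DESeq2 1.42.0, limma 3.58.1 on log2(FPKM + 1), other filters and scalings, the liver trace (at least 50 CPM, a split of the libraries that the labels do not call a batch) as a term or within the libraries that share it, and each library left out. The replicate numbers are not said to pair the samples, and the main fit did not pair them.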

Additional observations from a re-analysis of the deposited data

How the results depend on the processing

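Of the called changes of the 9 genes, 0 changed direction in any alternative fitted for their comparison. The liver trace was used as a term only for DSS against Ctrl, ImP against Ctrl and DSS against ImP. No comparison with DSS+ImP was fitted with the trace. Over the fits with 1 library left out, 181 called values kept their call and 47 lost it. Over the other alternatives 126 kept it and 32 lost it. The number of the 9 genes called in DSS against Ctrl, 2 as reported, was 5 with DESeq2, 0 with the replicate number as a block and 0 with the liver trace as a term. It was 3 with the filter of at least 1 CPM in 6 libraries, with only the groups compared and with counts divided by 4. With 1 library left out it was 0 to 3. For DSS+ImP against DSS it was 4 as reported, 2 by library totals, 0 with the block, 2 with only the groups compared, 6 with DESeq2, and 0 to 6 with 1 library left out. For ImP against Ctrl the reported 2 became 0 with the block, 0 with the liver trace as a term, 3 with DESeq2, limma on FPKM, the stricter filter, only the groups compared and counts divided by 4, and 0 to 3 with 1 library left out. For DSS+ImP against ImP the reported 4 became 1 with the block, 1 with only the groups compared, and 1 to 6 with 1 library left out. DSS+ImP against Ctrl had 7 as reported, 3 with the block and 5 to 8 with 1 library left out. DSS against ImP had 0 as reported, 1 with DESeq2, 1 with only the groups compared, and 0 to 1 with 1 library left out. The share of all tested genes called moved too. In DSS against Ctrl it was 2.8% as reported, 7.8% with DESeq2, 4.94% with the stricter filter and 4.29% with only the groups compared. It was 4.25% with counts divided by 4, 0.0449% with the block and 0.233% with the trace as a term. The fits with 1 library left out gave 1.16% to 3.38%. In DSS+ImP against DSS it was 8.03% as reported, 17.4% with DESeq2, 3.46% with only the groups compared and 1.58% with the block. Library totals gave 9.12% there, and the fits with 1 library left out 2.13% to 11.3%. In ImP against Ctrl it was 1.99% as reported, 6.3% with DESeq2, 4.24% with limma, 0% with the block and 0.00449% with the trace as a term. The stricter filter gave 3.71% there, only the groups compared 2.5% and counts divided by 4 gave 3.23%. The fits with 1 library left out gave 0.212% to 2.29%. In DSS+ImP against ImP it was 9.33% as reported, 3.09% with the block and 5.53% with only the groups compared. The fits with 1 library left out gave 4.33% to 10.8%. In DSS+ImP against Ctrl it was 22.7% as reported, 8.36% with the block and 13.7% to 21.6% with 1 library left out. In DSS against ImP it was 0.736% as reported, 2.72% with DESeq2 and 0.637% with only the groups compared. The fits with 1 library left out gave 0.026% to 0.844%. The cause of these differences was not tested.

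The block used replicate numbers, which are not said to pair the samples. Of 9 same-numbered pairs, 0 had deviations correlated over 0.1 (range -0.110 to 0.0827). A correlation over all genes cannot decide whether such pairs shared a factor that acts on some genes. In DSS against Ctrl, uncalled values changed sign: Car12 was 0.0087 with limma, 0.094 with the block, 0.010 with the liver trace as a term and 0.032 within the libraries that carry the trace. Gucy2c was 0.11 with the block and 0.014 within the libraries that carry the trace, and Guca2b was 0.032 with the liver trace as a term and 0.055 within the libraries that carry the trace. In DSS+ImP against DSS, Car2 (0.012) and Car13 (0.095) changed sign by library totals, and Car13 (0.054) with limma. Car4 in DSS+ImP against Ctrl was 0.052 by library totals. In DSS against ImP, Guca2a was 0.030 with limma and Car1 0.14 with the block. With 1 library left out, DSS against Ctrl ranged from -0.067 to 0.23 for Car4, -0.067 to 0.0078 for Car12 and -0.24 to 0.021 for Guca2b. DSS+ImP against DSS ranged from -0.66 to 0.051 for Car4 and -0.11 to 0.046 for Car13. Car2 in ImP against Ctrl ranged from -0.029 to 0.26, Car12 in DSS+ImP against ImP from -0.70 to 0.076, and Car4 in DSS+ImP against Ctrl from -0.51 to 0.19. DSS against ImP ranged from -0.39 to 0.069 for Car1 and -0.16 to 0.079 for Guca2a. The interaction ranged from -0.42 to 0.080 for Car8 and -0.68 to 0.084 for Car12.

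Scaling by library totals moved the median of all genes to between 0.14 and 0.17 (log2) in the comparisons that include DSS+ImP. Over all 22279 genes, the block left 10 calls in DSS against Ctrl where 623 were reported, and the liver trace as a term left 52.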

Other observations

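Car3, the carbonic anhydrase gene that lies between Car1 and Car2 on chromosome 3 and is known from muscle and fat, varied within groups as much as between them. Its libraries held 54.1, 3.34 and 202 CPM in Ctrl, 8.38, 196 and 72.2 CPM in ImP, 4.15, 62.9 and 206 CPM in DSS, and 13.9, 1.26 and 102 CPM in DSS+ImP. Each group had a library under 14 CPM and another over 100 CPM.

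Hoxb13, a gene of the distal gut, was at 0.838, 0.509 and 17.0 CPM in Ctrl, 125, 32.7 and 92.2 CPM in ImP, 8.11, 21.2 and 12.4 CPM in DSS, and 72.9, 112 and 25.3 CPM in DSS+ImP. In DSS+ImP the library lowest in Hoxb13, DSS+ImP 4, was the highest in Car1 (1791 CPM), Car12 (114 CPM) and Gucy2c (315 CPM). DSS+ImP 4 was also the highest of its group in Car8 (69.4 CPM), Guca2a (442 CPM) and Guca2b (14.9 CPM). For Car2, Car4 and Car13 it was neither highest nor lowest. The other groups are described for Car1, Gucy2c and Car12 only. In Ctrl the library highest in Hoxb13, Ctrl 5, was the lowest in Car1 (6914 CPM), and in ImP the library lowest in Hoxb13, ImP 3, was the highest in Car1 (3619 CPM). In DSS it was the other way round, with DSS 3 the highest in Hoxb13 and also in Car1 (3228 CPM). Gucy2c was lowest in Ctrl 5 (386 CPM) and DSS 3 (351 CPM). It was highest in ImP 1 (388 CPM), the ImP library highest in Hoxb13. Car12 was highest in ImP 3 (104 CPM) and neither highest nor lowest in Ctrl 5 and DSS 3. The part of position along the colon in these levels was not tested.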
